A study of Homo sapiens with 6 samples.

Results

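The human genes ERVW-1, ERVFRD-1, ERV3-1 and ERVV-1, which encode retroviral envelope proteins, were examined for acetylated chromatin in ovarian carcinoma cells before and after treatment with inhibitors of histone deacetylases. They are 4 of the 62663 genes of the GENCODE annotation. They were chosen by name, not by any measured value, but with earlier results of these data known. ERVV-2 and 2 further envelope genes are set beside them at the end. Each gene was taken with its span in the hg19 genome and 10 kb to either side: chromosome 7 from 92097 to 92108 kb for ERVW-1, chromosome 6 from 11102 to 11112 kb for ERVFRD-1, chromosome 7 from 64450 to 64468 kb for ERV3-1, and chromosome 19 from 53516 to 53521 kb for ERVV-1. The spans are given to about 1 kb, but the 5 kb span of ERVV-1 is longer than its gene of 2203 bp in hg38. Peak positions are given as in the lists. The submitters' notes name hg38, but 26908 peaks lie beyond the ends of hg38 chromosomes, and the lists were taken as hg19. In the 5 peak lists, the 4 windows held 28 of 376666 untreated peaks, 65 of 912311 and 60 of 913199 vorinostat peaks, and 58 of 896878 and 67 of 884242 romidepsin peaks.

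The cells were SKOV3 WT, an established line of human ovarian carcinoma. They were left untreated, or exposed for 24 h to 1 times the IC50 of vorinostat or of romidepsin, both inhibitors of histone deacetylases. ChIP-seq for H3AcK9, the acetyl mark on lysine 9 of histone 3, was done on 1 sample per condition, and no list belongs to the 3 input samples. The sequencing company divided each treated sample, so that 2 peak lists exist per drug; per the labels both come from 1 sample, and they are counted here as 1 sample, although the study elsewhere speaks of independent experiments. The value of a drug is the mean of both lists, and both are given. With 1 sample each, nothing that differs between conditions was replicated, and no test was run. The lists hold positions without reads, so the depth and the precision behind a peak are unknown.

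Human endogenous retroviruses are remnants of ancient germline infections, and most of their genes are broken. A few envelope genes kept an open reading frame. ERVW-1 encodes syncytin-1 and ERVFRD-1 encodes syncytin-2, both of which fuse the trophoblast cells of the placenta. ERV3-1 encodes an envelope protein that is cut short by a stop codon, and ERVV-1 is one of a pair of placental envelope genes that lie side by side on chromosome 19, the other being ERVV-2. Acetylation of histone 3 at lysine 9 marks active promoters and enhancers, and histone deacetylases take it off.

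The regulatory sequence at the annotated start sites was read from RefSeq (GRCh38.p14) for the genes with an entry, 250 bases before to 50 after the start site. It is shown because acetylation at promoters is what the peak lists bear on. Capitals mark matches to the TATA box (letters TATAAA), the CCAAT box, the GC box (letters GGGCGG) or the core of the site of GCM1, the placental factor that drives syncytin genes (letters ATGCGGG), each searched on both strands.
ERVW-1, chr7:92471375-92471674, minus strand: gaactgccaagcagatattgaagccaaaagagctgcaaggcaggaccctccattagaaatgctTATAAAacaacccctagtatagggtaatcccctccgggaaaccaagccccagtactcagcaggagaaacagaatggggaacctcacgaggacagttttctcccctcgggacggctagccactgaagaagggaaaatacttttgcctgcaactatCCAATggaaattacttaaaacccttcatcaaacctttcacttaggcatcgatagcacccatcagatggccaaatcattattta
ERV3-1 at the outer start site, chr7:65006638-65006937, minus strand: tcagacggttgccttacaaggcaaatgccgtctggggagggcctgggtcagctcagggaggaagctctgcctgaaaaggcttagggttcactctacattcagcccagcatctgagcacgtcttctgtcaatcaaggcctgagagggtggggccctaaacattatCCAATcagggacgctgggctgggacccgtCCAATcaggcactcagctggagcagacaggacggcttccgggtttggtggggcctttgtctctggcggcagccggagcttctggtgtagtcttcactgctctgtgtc
ERV3-1 at the inner start site, chr7:64999393-64999692, minus strand: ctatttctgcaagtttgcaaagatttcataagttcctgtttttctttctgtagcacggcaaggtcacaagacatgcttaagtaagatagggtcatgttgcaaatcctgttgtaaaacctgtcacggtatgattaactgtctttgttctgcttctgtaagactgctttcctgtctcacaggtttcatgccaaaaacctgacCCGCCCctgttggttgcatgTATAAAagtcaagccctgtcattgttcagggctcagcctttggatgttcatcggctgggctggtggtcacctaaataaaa
ERVV-1, chr19:53013671-53013970, plus strand: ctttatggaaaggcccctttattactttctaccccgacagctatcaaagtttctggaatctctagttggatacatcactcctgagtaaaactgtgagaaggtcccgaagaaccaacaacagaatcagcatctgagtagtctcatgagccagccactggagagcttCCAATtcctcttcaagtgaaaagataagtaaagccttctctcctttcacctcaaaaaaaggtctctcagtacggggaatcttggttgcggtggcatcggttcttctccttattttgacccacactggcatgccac

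There were 4 entries for 3 of the 4 genes, and none for ERVFRD-1. The ERVW-1 promoter held TATAAA with its first base 187 bases before the start site and CCAAT 33 bases before it. The outer ERV3-1 promoter held CCAAT 86 and 57 bases before the start. The inner one held TATAAA 30 bases before the start and GGGCGG on the opposite strand 50 bases before it. ERVV-1 held CCAAT 85 bases before the start. No entry held ATGCGGG. Of all 35116 promoters of the same length, 11.5% held TATAAA, 34.6% CCAAT, 45.0% GGGCGG and 1.86% ATGCGGG. All entries held fewer CpG than the median promoter, with 5 for ERVW-1, 9 and 4 for ERV3-1 and 5 for ERVV-1 against 14, and 41.6% of promoters held fewer than the outer ERV3-1 entry. The RefSeq start of ERVW-1 lies 6562 bp inside the gene as GENCODE draws it, and the inner start of ERV3-1 lies 7301 bp inside, so that these sequences do not sit at the outer 5′ ends used for the peaks.

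In hg38, ERVW-1, ERVFRD-1 and ERV3-1 are on the minus strand with 2 exons each, and lengths of 9607, 9237 and 16388 bp. ERVV-1 is on the plus strand as 1 exon of 2203 bp, shorter than its 5 kb span here, so that its zones are not tied to the exon. None of the genes stands alone. ERVW-1 overlaps a long non-coding RNA on the other strand and has GATAD1 8305 bp past its 3′ end. ERVFRD-1 lies inside SMIM13, which runs the opposite way. ERV3-1 has nearly the same outer 5′ end as ZNF117, a zinc finger gene on the same strand. ERVV-1 overlaps the pseudogene ZNF702P on the other strand. Peak lists carry no strand, so a peak over such a pair cannot be given to one gene.

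**Figure D1:**
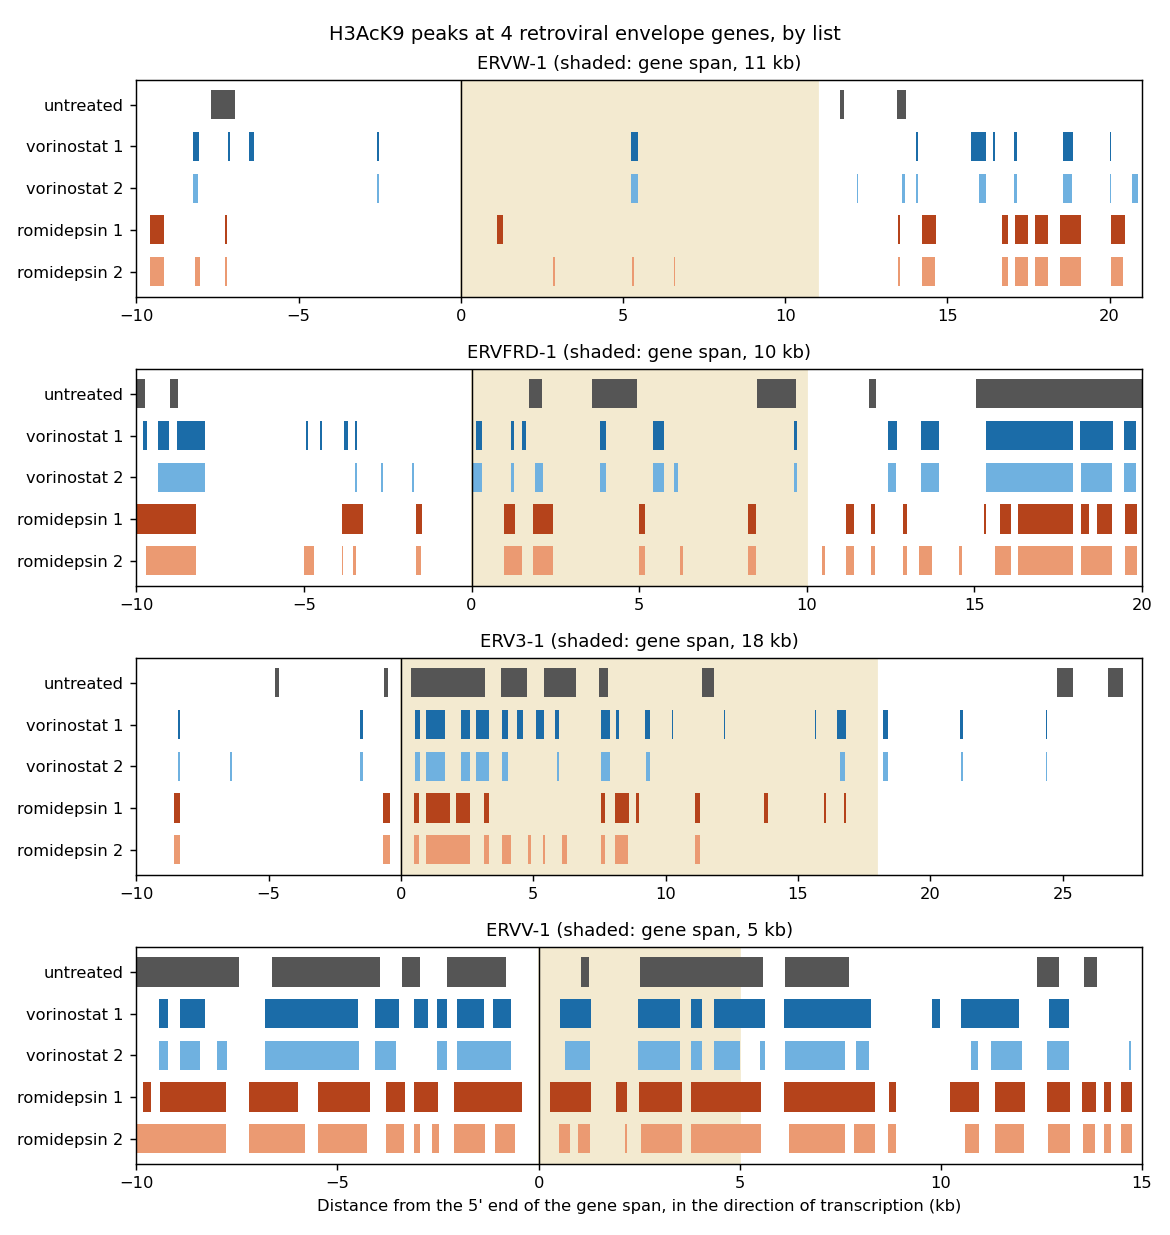
Peaks of the 5 lists at the 4 genes. The x axis is the distance in kb from the 5′ end of the gene span in the direction of transcription, the shaded area is the gene span, and each row is 1 list. The ERVW-1 span is empty in untreated cells, ERVFRD-1 and ERV3-1 show wide untreated peaks where the treated lists have several narrow ones, and ERVV-1 carries wide peaks along its window in every list.

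The genes differed widely in how much of their window was acetylated in untreated cells. Peaks covered 51.4% of the ERVV-1 window, 28.5% of the ERVFRD-1 window, 19.1% of the ERV3-1 window and 3.79% of the ERVW-1 window. Among all 30 kb windows of the genome, 96.1% had less coverage than ERVV-1, 84.7% less than ERVFRD-1, 76.3% less than ERV3-1 and 47.9% less than ERVW-1, and 26.8% of windows had no untreated peak. Over the gene spans alone the order was ERVV-1 at 53.4%, ERV3-1 at 32.2%, ERVFRD-1 at 28.9% and ERVW-1 at 0%, so that ERVFRD-1 and ERV3-1 changed places. The ERVV-1 window was the most covered of the 4 in each list and the ERVFRD-1 window came next in each list. ERV3-1 and ERVW-1 were apart in the vorinostat lists, at 11.3% and 8.82% against 5.63% and 4.88%, and overlapped in the romidepsin lists, at 9.52% and 10.8% against 10.2% and 10.3%.

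**Figure D2:**
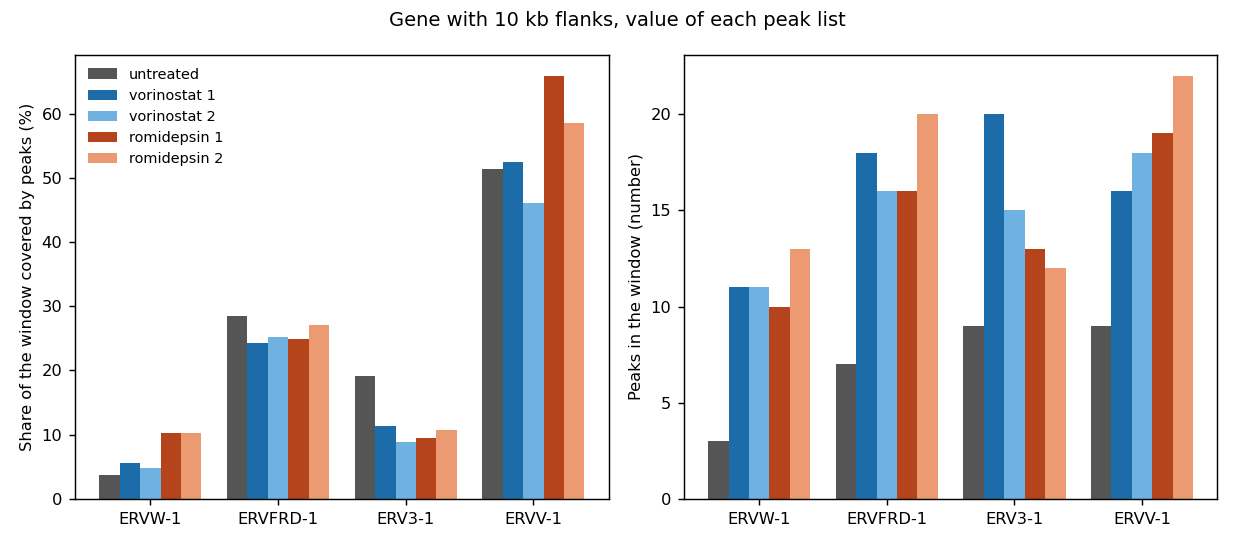
Share of each window covered by peaks (left, %) and number of peaks in it (right), 1 bar per list, for each gene with 10 kb flanks. ERVW-1 is highest after romidepsin at 10.2% and 10.3%, ERV3-1 is highest in untreated cells at 19.1%, and the number of peaks is higher in each treated list than in untreated cells at all 4 genes.

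A window was called higher or lower where the mean of both treated lists was at least 1.5-fold above or below the untreated value. By covered bases, vorinostat gave 0 of 4 windows higher and 1 lower, ERV3-1, where 21.1% and 30.5% of all 66322 windows of 30 kb with an untreated peak were called. Romidepsin gave 1 higher, ERVW-1, and 1 lower, ERV3-1, where 18.8% and 32.5% of all windows were called. With 4 genes these counts are close to those shares. The median fold over the 4 genes was 0.914 with vorinostat and 1.06 with romidepsin, and over all windows 0.864 and 0.875.

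**Figure D3:**
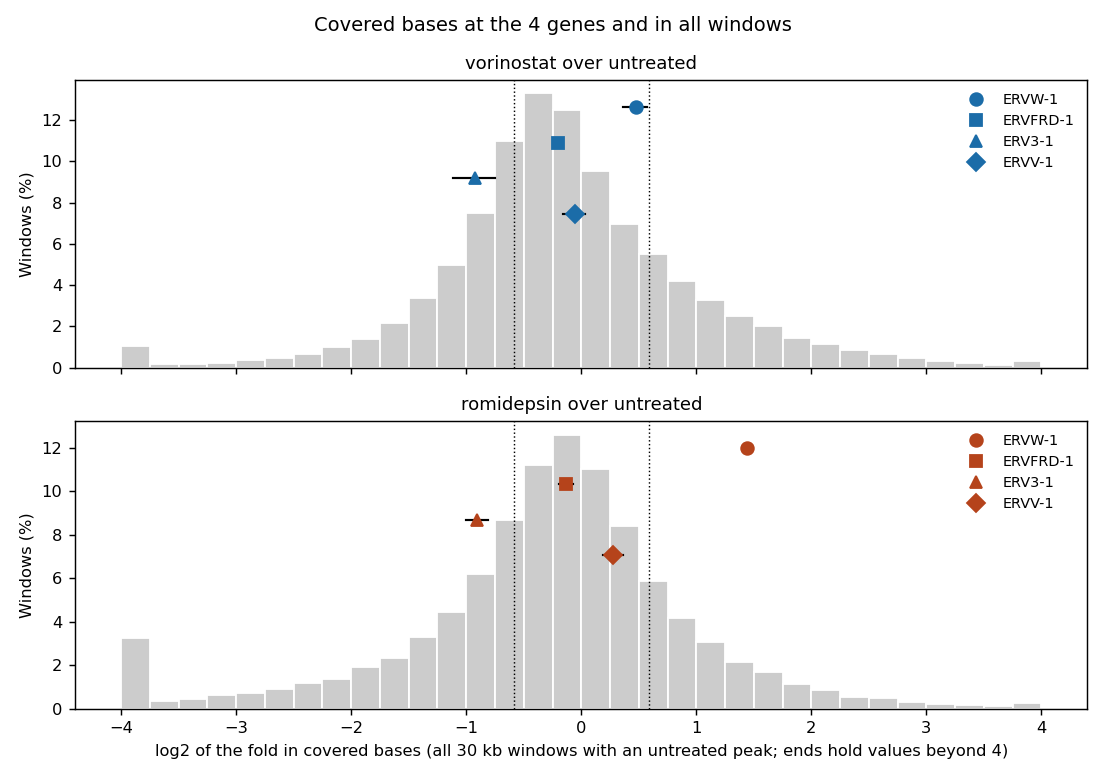
Fold in covered bases (log2) of all 30 kb windows with an untreated peak (grey bars, % of windows) and of the 4 gene windows (symbols; the line joins both lists, and height has no meaning), for vorinostat (top) and romidepsin (bottom). Dotted lines mark 1.5-fold. ERVW-1 after romidepsin lies to the right at 2.71-fold, ERV3-1 lies left of the lower line for both drugs, and ERVFRD-1 and ERVV-1 lie between the lines.

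Peak numbers were higher nearly everywhere. With vorinostat the number was at least 1.5-fold higher in 4 of 4 windows and lower in 0, against 83.2% and 2.93% of all windows. With romidepsin it was higher in 3 of 4 and lower in 0, against 79.3% and 7.1%, the exception being ERV3-1 at 1.39-fold. Over the whole lists peaks were narrower after treatment, with a median width of 537 bp in untreated cells, 206 and 203 bp with vorinostat, and 219 and 215 bp with romidepsin. The narrowest peak measured 127 bp in the untreated list and 50 or 51 bp in the treated ones. A higher number thus goes with smaller pieces, and covered bases are given beside it. In each of the 4 windows the widest peak was an untreated one, of 764 bp at ERVW-1, 5006 bp at ERVFRD-1, 2810 bp at ERV3-1 and 3062 bp at ERVV-1.

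Syncytin-1, the product of ERVW-1, is the best known of these envelopes. Its window held 1175 covered bp in untreated cells, 1744 and 1514 bp with vorinostat and 3176 and 3190 bp with romidepsin. Both treated samples were above the untreated one, and romidepsin was the higher drug by 1.95-fold, with lists that did not overlap those of vorinostat. The fold over untreated was 1.39 for vorinostat and 2.71 for romidepsin. It depends on the flank, since with 20 kb on either side the folds were 0.605 and 0.952. With only peaks scored 1 or higher they were 0.370 and 1.10. There were 3 untreated peaks, 11 in either vorinostat list, and 10 and 13 in the romidepsin lists. Of the 11 vorinostat peaks, 6 in either list were narrower than 127 bp, and without peaks below that width the folds in covered bases were 1.03 and 2.54.

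Little of this lay in the ERVW-1 gene. The gene span held 0 covered bp in untreated cells, 228 bp in either vorinostat list, and 191 and 150 bp in the romidepsin lists. The vorinostat bases were a single peak at chr7:92102525-92102752, found at the same place in both lists, 5248 to 5476 bp from the 5′ end of the span. The romidepsin lists shared no peak in the gene. The first held 1 peak of 191 bp at chr7:92106702-92106892, and the second 3 peaks of 50 bp each, the smallest width in the lists, of which chr7:92102675-92102724 lies inside the vorinostat peak. With the span divided into 3 equal parts, the 3′ part was without a peak in all 5 lists. Within 2 kb of the 5′ end only the first romidepsin list had a peak, with 191 covered bp, so that this zone has no fold.

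The higher coverage at ERVW-1 sat in the 10 kb past its 3′ end, the side of GATAD1. That flank held 411 covered bp in untreated cells, 1063 and 1082 bp with vorinostat, and 2471 and 2381 bp with romidepsin. The 7 romidepsin peaks there recurred in both lists, from chr7:92087533-92087948 to chr7:92094472-92094521 in the first list. The 10 kb before the 5′ end held 764 covered bp in untreated cells against 453 and 204 bp with vorinostat and 514 and 659 bp with romidepsin. Here each treated list was below the untreated one, opposite to the other flank.

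Syncytin-2, encoded by ERVFRD-1, showed the reverse arrangement. Its whole window changed little, with 8550 covered bp in untreated cells, 7300 and 7547 bp with vorinostat and 7475 and 8131 bp with romidepsin. These are folds of 0.868 and 0.913, each below 1.5-fold, and the lists of both drugs overlapped at a ratio of 1.05. There were 7 untreated peaks, 18 and 16 with vorinostat, and 16 and 20 with romidepsin.

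Inside the ERVFRD-1 gene the untreated value was the highest. The span held 2895 covered bp in untreated cells, 992 and 1348 bp with vorinostat and 1330 and 1640 bp with romidepsin, folds of 0.404 and 0.513. Most of the untreated bases were in 2 wide peaks, 1178 bp at chr6:11102321-11103498 in the 3′ part and 1349 bp at chr6:11107052-11108400 in the middle. In the 3′ part, 1178 untreated bp stood against 97 bp in either vorinostat list and 240 bp in either romidepsin list. The middle part held 1349 bp against 496 and 624 bp, and 174 and 259 bp.

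Toward the 5′ end of ERVFRD-1 the order was turned round. The 5′ part held 368 covered bp in untreated cells, 399 and 627 bp with vorinostat and 916 and 1141 bp with romidepsin. The 10 kb before the gene held 482 bp against 1591 and 1568 bp with vorinostat and 2555 and 2049 bp with romidepsin. Each treated list was above the untreated one in both zones. Most of the bases before the gene formed a cluster 8 to 10 kb away, such as chr6:11119961-11121354 in the second vorinostat list and chr6:11120226-11122047 in the first romidepsin list. An untreated peak of 1272 bp at chr6:11121738-11123009 runs across the outer edge of this flank, and only 263 bp of it were counted. The untreated value of this flank thus depends on where the window ends. With 20 kb flanks the folds of the whole window were 0.848 with vorinostat and 0.990 with romidepsin. The 10 kb past the 3′ end, where SMIM13 starts on the other strand, held the widest untreated peak of all 4 windows, 5006 bp at chr6:11091937-11096942. Coverage there was 5173 bp in untreated cells, 4717 and 4631 bp with vorinostat and 3590 and 4442 bp with romidepsin, and the wide peak was replaced by pieces of up to 2607 bp.

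**Figure D4:**
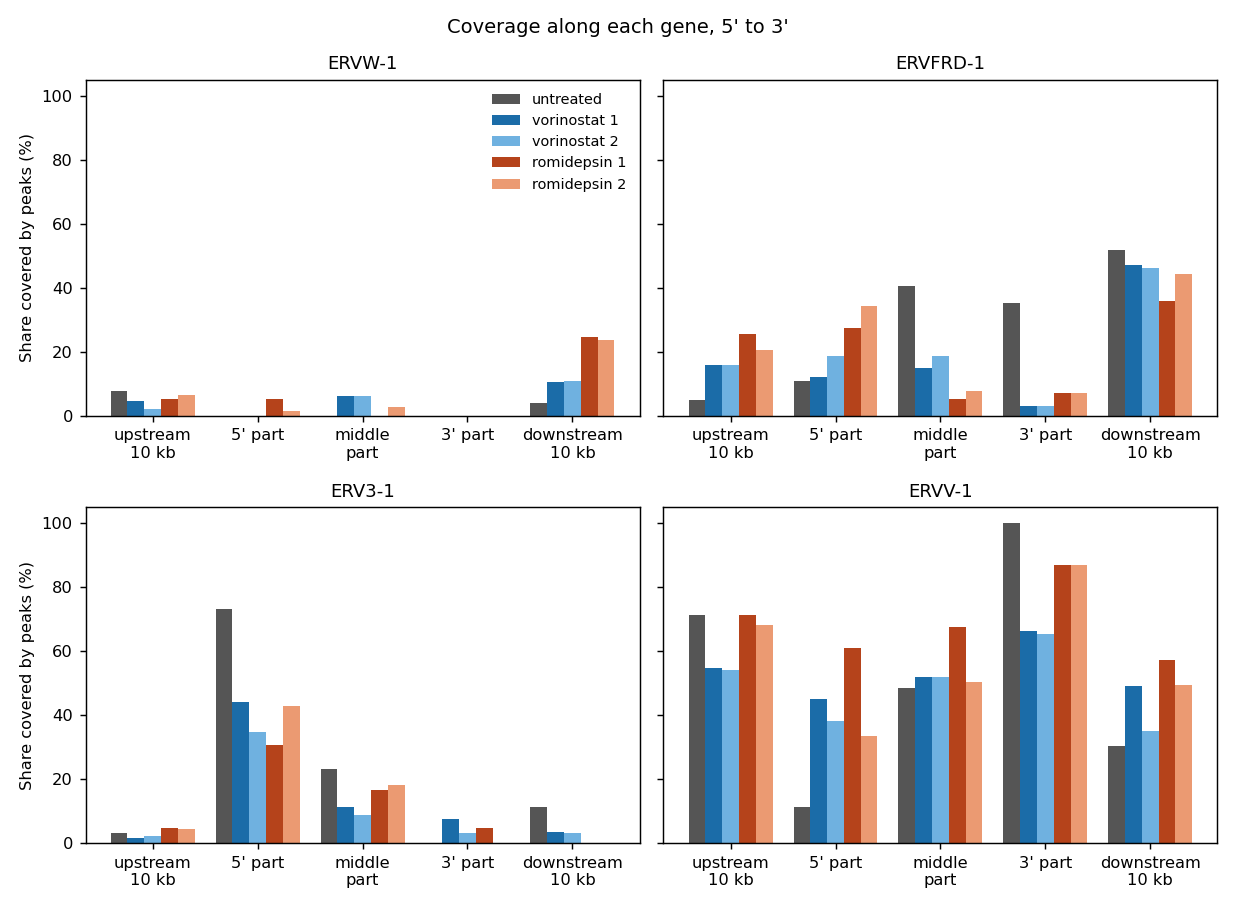
Share of each zone covered by peaks (%), from 10 kb before the gene through 3 equal parts of its span to 10 kb past it, 1 bar per list. ERVFRD-1 is higher after treatment before the gene and in its 5′ part and lower in its middle and 3′ parts, and ERV3-1 is lower after treatment in its 5′ and middle parts. An untreated peak of 1272 bp runs past the outer edge of the zone before ERVFRD-1 and is counted only in part.

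ERV3-1, the longest of the 4 genes, was the only one whose window was at least 1.5-fold lower in covered bases after both drugs. Its window held 7245 covered bp in untreated cells, 4307 and 3351 bp with vorinostat and 3617 and 4121 bp with romidepsin. Each treated list was below the untreated one, with folds of 0.529 and 0.534, and the lists of the drugs overlapped at a ratio of 1.01. With the peaks of each list merged across gaps of up to 1000 bp, the folds were 0.727 and 0.750, short of 1.5-fold. The number of peaks went the other way, from 9 in untreated cells to 20 and 15 with vorinostat and 13 and 12 with romidepsin.

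Coverage at ERV3-1 was concentrated in the 5′ part of the gene in all lists. That part held 4406 bp in untreated cells, 2645 and 2081 bp with vorinostat and 1835 and 2565 bp with romidepsin. It contained the widest untreated peak of the window, 2810 bp at chr7:64464830-64467639, whose near edge is 361 bp inside the 5′ end of the span. In the first vorinostat list the same stretch carried 4 peaks of 200 to 718 bp, and in the second romidepsin list the widest piece was 1686 bp. The middle part held 1387 bp in untreated cells against 681 and 524 bp, and 1004 and 1093 bp. The 3′ part had no untreated peak and held 451 and 195 bp with vorinostat and 296 and 0 bp with romidepsin.

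Both flanks of ERV3-1 were sparse. The 10 kb past its 3′ end held 1140 covered bp in untreated cells, 353 and 331 bp with vorinostat and 0 bp in either romidepsin list. The 10 kb before the gene held 312 bp in untreated cells, 177 and 220 bp with vorinostat and 482 and 463 bp with romidepsin, so that vorinostat was below and romidepsin above the untreated value.

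ERVV-1 had the most acetylated window. It held 12844 covered bp in untreated cells, 13130 and 11531 bp with vorinostat and 16475 and 14649 bp with romidepsin. The vorinostat lists lay on either side of the untreated value, at 0.960-fold on average, and both romidepsin lists lay above it, at 1.21-fold. With only peaks scored 1 or higher, 1 untreated peak of 313 bp was left and the folds were 9.31, from lists of 0 and 5826 bp, and 17.6. Romidepsin was 1.26-fold above vorinostat, and their lists did not overlap. There were 9 untreated peaks, 16 and 18 with vorinostat, and 19 and 22 with romidepsin.

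The ERVV-1 span held 2668 covered bp in untreated cells, 2720 and 2591 bp with vorinostat and 3597 and 2849 bp with romidepsin, folds of 0.995 and 1.21. Its ends differed from untreated cells in opposite directions. The 5′ part held 189 bp in untreated cells, 751 and 635 bp with vorinostat and 1021 and 562 bp with romidepsin, higher in each treated list. The 3′ part was wholly covered in untreated cells by the 3062 bp peak at chr19:53518522-53521583, with 1667 bp, and held 1105 and 1092 bp with vorinostat and 1448 bp in either romidepsin list.

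Beyond the gene, the 10 kb before ERVV-1 held 7139 covered bp in untreated cells, 5491 and 5424 bp with vorinostat, and 7139 and 6838 bp with romidepsin. Vorinostat was lower there and romidepsin was at or just below the untreated value. The 10 kb past the gene, on the side of ERVV-2, held 3037 bp in untreated cells, 4919 and 3516 bp with vorinostat and 5739 and 4962 bp with romidepsin, higher in each treated list. ERVV-2 itself, with the same flanks, held 12600 covered bp in untreated cells and was 1.14-fold higher with vorinostat and 1.31-fold higher with romidepsin. Its gene span alone held 2231 bp in untreated cells and was at 1.29-fold and 1.87-fold, past 1.5-fold with romidepsin.

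Sequence that occurs more than once limits how reads can be placed. Of the stretches of 49 bases in the hg38 gene, 48.7% occurred once in the genome for ERVV-1, against 72.2% for ERVW-1, 98.0% for ERV3-1 and 99.9% for ERVFRD-1. ERVV-1 and ERVV-2 aligned over 2023 bp at 95.1% identity, and 51.3% of the ERVV-1 stretches were also found in ERVV-2 or its flanks. A peak within the ERVV-1 gene can therefore hold reads of its neighbour, and how such reads were placed is not given in the sources used here.

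The 5′ ends were taken as a zone of 2 kb to each side. ERVW-1 had no untreated peak there, so that calls are among the other 3 genes. Vorinostat gave 1 gene higher there, ERVFRD-1 at 1.77-fold, and 1 lower, ERV3-1 at 0.574-fold, while 16.9% and 49.7% of all 285669 windows of 4 kb with an untreated peak were higher and lower. Romidepsin gave 2 higher, ERVFRD-1 at 2.72-fold and ERVV-1 at 1.58-fold, and 0 lower, against 20.4% and 44.8%. The ERVFRD-1 zone held 275 covered bp in untreated cells, from 1 peak, 399 and 575 bp with vorinostat and 649 and 846 bp with romidepsin. The ERV3-1 zone held 1788 bp, 1027 bp in either vorinostat list, and 1339 and 1488 bp. The ERVV-1 zone held 1391 bp in untreated cells, 1839 and 1947 bp with vorinostat and 2686 and 1720 bp with romidepsin. This zone is set by the 5 kb span of ERVV-1, which is longer than the gene, and may miss the start of the gene. In these 3 genes the treated lists were on one side of the untreated value, above it at ERVFRD-1 and ERVV-1 and below it at ERV3-1. Both lists of a drug come from 1 sample, and how many of all windows have their lists on one side was not computed. The calls depend on the width of the zone, since at 5 kb to each side the folds of ERVFRD-1 were 0.537 and 0.999 and the romidepsin fold of ERVV-1 was 1.13. The second romidepsin list alone gave 1.24 at ERVV-1, and ERVFRD-1 with vorinostat was at 1.45 in the first list alone and at 1.09 without peaks under 127 bp.

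Peaks were also followed one by one, with an overlap of at least 1 bp. Of the 28 untreated peaks, 8 met no vorinostat peak in either list, or 28.6%, against 35.3% of all untreated peaks, and 7 met no romidepsin peak, against 33.2%. ERV3-1 gave 5 of the 8 and 4 of the 7. The unmatched share was lowest at ERVV-1, with 1 of 9 unmatched by vorinostat and 0 of 9 by romidepsin. From the first vorinostat list, 49 peaks in these windows were found in the second as well, and 24 of them met no untreated peak, against 57.2% over the whole list. For romidepsin these were 23 of 52, or 44.2%, against 56.1%. At ERVW-1 the 8 vorinostat peaks found in both lists all lay where untreated cells had none, and at ERVV-1 only 2 of 14 did. Matches at 1 bp are more likely where more of a window is covered. Untreated peaks covered 3.79% of the ERVW-1 window and 51.4% of the ERVV-1 window, and the counts were not corrected for this.

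How far the lists fell on the same bases set the genes apart. The lists of one drug shared 54.5% of the bases covered by either at ERVW-1 with vorinostat and 82.3% with romidepsin. At ERVFRD-1 these shares were 82.3% and 73.2%, at ERV3-1 75.5% and 69.6%, and at ERVV-1 78.5% and 82.5%, against 65.8% and 69.4% over the whole lists. Untreated and treated lists shared far less, from 2.42% to 4.18% at ERVW-1, from 22.2% to 32.6% at ERV3-1, from 31.4% to 39.0% at ERVFRD-1 and from 51.5% to 60.8% at ERVV-1, with 28.7% to 29.8% over the whole lists. The drugs shared 7.49% to 12.3% with each other at ERVW-1 and 57.8% to 62.3% at ERVV-1. In all 4 windows, the lists of one drug were more alike than any pair from different conditions. The shares between conditions came in the same order as the untreated coverage of the windows, for which they were not corrected.

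**Figure D5:**
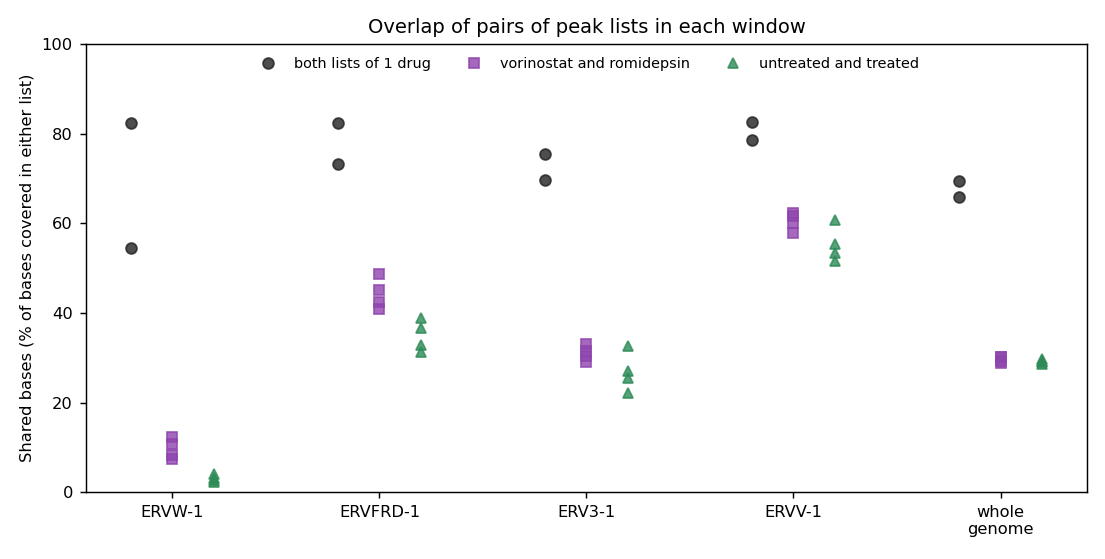
Bases shared by pairs of lists as a percentage of the bases covered in either, for each window and for the whole lists. Circles are both lists of 1 drug, squares are a vorinostat and a romidepsin list, and triangles are the untreated and a treated list. ERVW-1 has the lowest overlap between conditions, 2.42% to 4.18% for untreated and treated, and ERVV-1 the highest, 51.5% to 60.8%.

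Other envelope genes and partners of the envelope proteins were measured the same way. Envelopes besides ERVV-2 were ERVMER34-1 and ERVH48-1, which encodes suppressyn, an inhibitor of syncytin-1. SLC1A5 and SLC1A4 are amino acid transporters that serve as receptors of syncytin-1, MFSD2A is the receptor of syncytin-2, and GCM1 is the placental transcription factor named above. Of these 7 genes with ERVV-2, 0 had at least 1.5-fold more covered bases in the window with either drug. With vorinostat 2 were lower, ERVMER34-1 at 0.658-fold and ERVH48-1 at 0.541-fold, and with romidepsin 1, ERVMER34-1 at 0.437-fold. Of all 30 kb windows, 21.1% were higher and 30.5% lower with vorinostat, and 18.8% and 32.5% with romidepsin. The ERVH48-1 value for romidepsin, 0.804, rests on the first list, since the second has no peak on chromosome 21. The median fold of the 7 was 0.721 with vorinostat and 1.03 with romidepsin. SLC1A5 was at 0.721 and 1.04, SLC1A4 at 0.866 and 1.10, MFSD2A at 0.781 and 0.973, and GCM1 at 0.699 and 1.03. The number of peaks was at least 1.5-fold higher in 7 of 7 with either drug, as in most windows.

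The label of the cell line was set against 4 genes. CDKN2A, which SKOV3 has lost from its genome, had 0 peaks over its span in all 5 lists. Its window with flanks held 1 peak in either romidepsin list, with 178 and 184 covered bp, and 0 in the other lists. ERBB2, which is amplified in SKOV3, had 85.9% of its window covered in untreated cells, PAX8, a factor of the Müllerian lineage, 84.5%, and KRT18, an epithelial keratin, 27.8%. These values do not go against the label.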

How the data were processed

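H3AcK9 ChIP-seq peak lists of SKOV3 WT cells were used, 1 for untreated cells and 2 for each drug. According to the submitters' notes, the authors aligned reads with BWA (the study's methods name SOAPaligner, SOAP2 and BWA together) and called peaks per list with MACS 1.4.2. Each of the 5 columns of a list holds the chromosome, start, end, peak name or score deposited by the authors; the scale of the score is not given in the sources used here, and it served only as a filter. The treatment of reads that map to several places is not given either.

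From the lists, bases covered by peaks and numbers of peaks overlapping by at least 1 bp were computed for each gene with 10 kb flanks, 3 equal parts of the gene span, and 2 kb around the 5′ end, with Python 3.11.15, NumPy 2.4.6 and pandas 2.3.3, and drawn with Matplotlib 3.10.9. The background was all 30 kb (or 4 kb) windows with an untreated peak on the 20 chromosomes with peaks in all lists. A call was a fold of at least 1.5, with no test at 1 sample per condition. The functions recovered 25 of 25 known quantities of simulated peaks and equalled bedtools 2.31.1 in 20 of 20 comparisons. Peak positions are those of the lists, which were taken as hg19, since on 14 of 23 chromosomes peaks lie beyond the hg38 end. Spans of the partner genes and of the genes used to check the line are hg19 spans from general knowledge, rounded to kb, with lengths and chromosomes checked against GENCODE 44. Strands, neighbours and repeated stretches come from hg38 with GENCODE 44, the alignment from blastn 2.17.0 and promoters from RefSeq; no position was converted. All genes named are the 4 genes, their partners, their neighbours and the markers of the line. The genes, lists and partners were chosen with earlier results of these data known. Each list alone, filters on score and width, merging of broken-up peaks and other zone widths were tried as alternatives.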

Additional observations from a re-analysis of the deposited data

Results flagged for a closer look

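The 10 kb before ERV3-1 was the only zone examined in the 4 genes where both lists of one drug lay below the untreated value and both lists of the other above it. By the mean of both lists alone, the ERVV-1 window (-513.5 bp with vorinostat and 2718 bp with romidepsin) and gene span (-12.5 and 555 bp) also stood on opposite sides. In the 10 kb before ERV3-1, untreated cells had 312 covered bp, the vorinostat lists 177 and 220 bp and the romidepsin lists 482 and 463 bp. The mean of both lists minus the untreated value was -113.5 bp for vorinostat and 160.5 bp for romidepsin. The difference between the drugs was not tested, since each drug has 1 sample. Both lists of a drug come from that sample, and the share of all windows with such a split was not computed. The vorinostat peaks were narrow, 51 to 109 bp, all below the 127 bp of the narrowest untreated peak. The romidepsin peaks were 207 to 256 bp.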

How the results depend on the processing

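No paired analysis was possible because each condition has 1 ChIP sample. Leaving out a replicate is impossible for the same reason, and each list alone was used instead. Counts are of genes at least 1.5-fold higher or lower, among those of the 4 with an untreated peak in the zone. A gene without one has no fold and was left out. This took out ERVW-1 around the 5′ end in every setting and without flanks. It took out ERVFRD-1 at 1 kb to each side of the 5′ end, and throughout with peaks scored 1 or higher. With that score filter only ERV3-1 was left around the 5′ end. With the first lists alone, 0 genes were higher around the 5′ end with vorinostat, and with the second lists 1 with romidepsin. Keeping only peaks scored 1 or higher, vorinostat gave 1 window higher and 2 lower in covered bases and 1 higher in peak number, romidepsin gave 1 lower in peak number, and around the 5′ end vorinostat gave 0 higher and romidepsin 0 higher and 1 lower. The 1 window higher with romidepsin was then ERVV-1 (17.6) and no longer ERVW-1 (1.10). With peaks of at least 200 bp, vorinostat gave 2 higher in peak number. With merging across 300 bp, vorinostat gave 0 lower around the 5′ end. With merging across 1000 bp, vorinostat gave 1 window higher and 0 lower in covered bases and 2 higher in number, and romidepsin 0 lower in covered bases, 1 higher and 1 lower in number. Without flanks, vorinostat gave 2 lower, and romidepsin 0 higher and 2 lower. With 20 kb flanks, vorinostat gave 2 lower and romidepsin 0 higher. By covered bases, 19.3% of all 10 kb windows were higher and 41.1% lower with vorinostat, and 21.2% and 38.9% with romidepsin. Of all 50 kb windows, 21.7% were higher and 25.2% lower with vorinostat, and 17.7% and 29.3% with romidepsin. For single lists and for filtered or merged peaks no share over all windows was computed, so those counts stand without one. At 1 kb to each side of the 5′ end romidepsin gave 1 higher and 1 lower, and at 5 kb vorinostat 0 higher and 2 lower and romidepsin 0 higher and 1 lower. With peaks of at least 127 bp, chosen after seeing the data since untreated peaks start at that width, vorinostat gave 0 higher around the 5′ end.

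Of the folds past 1.5-fold, the direction turned in 6 alternative values: the ERV3-1 peak number with vorinostat at a score of at least 1 (0.857), the ERVFRD-1 5′ end with vorinostat at 200 bp (0.744) and at 5 kb (0.537), the same with romidepsin at 5 kb (0.999), the ERVV-1 peak number with romidepsin merged across 1000 bp (0.625) and the ERVW-1 window with romidepsin at 20 kb flanks (0.952). A further one, the ERVW-1 peak number with vorinostat and peaks scored 1 or higher, came to 1.0. The cause was not tested. Folds past 1.5-fold kept their direction in 28 of 29 alternative values for covered bases of the window, 63 of 66 for peak numbers and 28 of 31 for the 5′ ends. Folds short of 1.5 kept it in 37 of 47, 8 of 10 and 15 of 17, and those that turned include the ERVW-1 window with vorinostat (0.370 with peaks scored 1 or higher, 0.935 at 200 bp, 0.605 at 20 kb flanks) and the ERVFRD-1 window merged across 1000 bp (1.29 and 1.34). A score filter is not known to be stricter, since its scale is not known. The lists hold no reads, so what depth limits cannot be said.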
